A study of Mus musculus with 42 samples.

Results

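Olfr1347 (ENSMUSG00000034583) and Olfr1348 (ENSMUSG00000093877) are neighbouring odorant receptor genes on mouse chromosome 7. They are 2 of the 44674 genes in the count table and 2 of its 1170 olfactory receptors, and both passed the filter on low counts. They were chosen by gene symbol on the values of their pulldown and input libraries and the ratio of these across the odours, so those values are given below as a description, without a test. The tissue was main olfactory epithelium of C57BL/6NCrl males aged 8 to 12 weeks, and each pool held 4 epithelia. Mice were exposed to the odour of normal chow diet (NCD, 6 pools), of bacon-flavoured diet (BFD, labelled Bacon, 5 pools) or of lard-based high-fat diet (HFD, 5 pools) for 1 h, or to no odour (5 pools). Each pool gave a pulldown library, made by pS6-ribotrap with an antibody against phosphorylated ribosomal protein S6, and an input library of the RNA before the pulldown. No group carried a transgene or a deletion by the labels, and the 3 odours were all set against the same no-odour pools.

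Each olfactory sensory neuron expresses a single odorant receptor gene, picked from a family that lies in clusters along the genome. When an odorant binds its receptor, the neuron depolarizes and S6 becomes phosphorylated, so that the messenger RNA of the receptor is enriched in a pulldown of phosphorylated ribosomes. The ligands of these 2 receptors are not given in the sources used here. Because whole epithelia were pooled, a change in the number of neurons that express a receptor and a change in receptor RNA per neuron cannot be told apart.

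In GRCm38, with the gene models of GENCODE M21, Olfr1347 spans chr7:6486944-6499755 and Olfr1348 chr7:6499793-6508748, both on the minus strand. Only 37 bases separate the upstream end of Olfr1347 from the downstream end of Olfr1348. Olfr1347 has 5 annotated transcripts and a coding sequence for 319 residues, and Olfr1348 has 10 transcripts and a coding sequence for 312. The encoded proteins are identical at 289 of 319 aligned positions (90.6%), and the coding sequences at 860 of 957 (89.9%). Of the 1138 receptors with a complete coding sequence, Olfr1347 is the closest to Olfr1348, followed by Olfr1336 (84.1%), Olfr5 (84.0%) and Olfr1346 (74.4%) of the same cluster. Outside the cluster the highest identity is 54.6%, for Olfr449, and the median over the other receptors is 38.9%.

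A pair of 60-base coding windows shows the genes at a conserved motif of the family and where they differ most. The first codes for the start of the second intracellular loop, with the aspartate-arginine-tyrosine motif of odorant receptors. It lies at chr7:6501802-6501861 in Olfr1348 and at chr7:6488429-6488488 in Olfr1347, on the minus strand. Capitals mark the 3 bases that differ between the genes.
Olfr1348: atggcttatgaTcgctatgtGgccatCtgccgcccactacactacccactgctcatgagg
Olfr1347: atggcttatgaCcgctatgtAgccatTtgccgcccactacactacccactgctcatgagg

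The second is the least alike window, near the start of the coding sequence, at chr7:6502159-6502218 in Olfr1348 and chr7:6488786-6488845 in Olfr1347, again on the minus strand. Here 20 of the 60 bases differ, which are in capitals.
Olfr1348: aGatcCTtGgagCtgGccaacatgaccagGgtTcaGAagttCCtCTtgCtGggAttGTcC
Olfr1347: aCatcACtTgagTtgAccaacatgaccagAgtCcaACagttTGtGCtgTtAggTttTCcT

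Reads from windows like the first could have been shared between the 2 genes by the estimation of counts. Of the 31-base words in the transcripts of Olfr1347, 28.9% also occur in another gene and 24.9% occur in Olfr1348. For Olfr1348 these shares are 16.7% and 14.3%. The counts of the 2 genes are therefore not fully separate, and the fold changes of the main fit are also given for their summed counts.

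Both genes were among the most abundant receptors of the epithelium. Compared per length, as mean CPM (counts scaled to a common library size) per kb of exon, Olfr1348 had the level of rank 4 of 1170 receptors in the inputs of every odour group, at 13.9 to 15.6. Olfr1347 had 8.61 to 11.5, which is rank 6 in the inputs without odour, with NCD and with HFD and rank 8 with BFD. The median receptor had 0.236 to 0.247 in the inputs. In the pulldowns Olfr1348 had rank 7 without odour, 3 with NCD, 2 with BFD and 7 with HFD, and Olfr1347 had ranks 6, 4, 3 and 5. Olfr1348 made up 1.92% ± 0.143 (SD, n = 5) of all receptor counts in the inputs without odour. The plot of receptor levels per length shows both genes at the top of the family and the 6 other receptors of the cluster well below them.

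**Figure D1:**
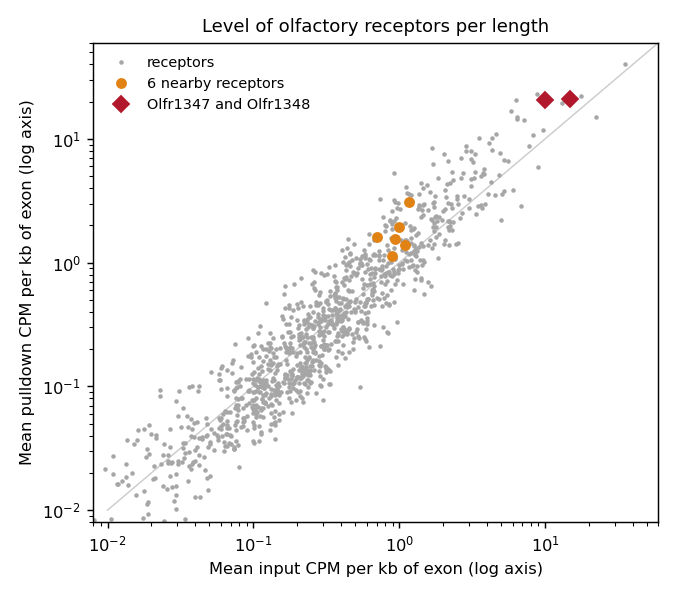
Mean pulldown level against mean input level of the olfactory receptors, in CPM per kb of exon over the 21 pools, on log axes, with a grey line of equality. Olfr1347 and Olfr1348 (diamonds) lie at the upper right, and the 6 nearby receptors (circles) are lower. Of the 1117 receptors above 0 in both library types, 35 fall below the range drawn.

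The pulldown of Olfr1348 was lowest without odour and highest with BFD. Its level in the no-odour pulldowns was 38.3, 35.2, 39.0, 54.9 and 50.8 CPM. With NCD odour it ran from 62.4 to 77.6 CPM (median 69.9, n = 6). With BFD odour it was 66.1, 90.0, 94.9, 84.4 and 91.9 CPM, and with HFD odour 57.6, 55.1, 55.5, 55.6 and 56.5 CPM. Every odour pulldown was above every no-odour pulldown, though the lowest HFD pool, at 55.1 CPM, was barely above the highest no-odour pool, at 54.9. HFD pulldowns were all below those of NCD and BFD, which overlapped with each other. Nothing is read from these separations, since the share of all genes that separate so was not counted. The mean was 43.7 ± 8.65 CPM (SD, n = 5) without odour, 69.6 ± 5.17 (SD, n = 6) with NCD, 85.5 ± 11.5 (SD, n = 5) with BFD and 56.0 ± 1.01 (SD, n = 5) with HFD.

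The inputs of Olfr1348 varied less. Their means were 47.0 ± 6.63 CPM (SD, n = 5) without odour, 41.96 ± 2.23 (SD, n = 6) with NCD, 47.1 ± 1.97 (SD, n = 5) with BFD and 45.1 ± 0.915 (SD, n = 5) with HFD. The no-odour inputs, from 40.4 to 56.8 CPM, overlapped with those of all 3 odours. The inputs of BFD were all above those of NCD, from 45.5 to 50.4 against 39.3 to 44.9 CPM. For the inputs as well, the share of all genes that separate so was not counted.

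Olfr1347 had fewer counts than Olfr1348 and more of them in the pulldown relative to the input. Per kb of exon it had 15.4 CPM in the no-odour pulldowns, against 14.5 for Olfr1348, and 21.1 against 18.6 in those with HFD. Not scaled by length, its no-odour pulldowns held 27.2, 23.4, 25.8, 34.7 and 29.4 CPM, against 33.6 to 46.0 CPM (median 40.3, n = 6) with NCD. With BFD they held 27.9, 44.4, 58.2, 44.1 and 50.1 CPM, and with HFD 40.7, 39.2, 39.9, 35.5 and 37.1 CPM. All HFD pulldowns were above those without odour, whereas 1 NCD pool and 1 BFD pool (replicate 1) were within the no-odour range. Here too it was not counted how many of all genes separate so. The inputs of Olfr1347 averaged 20.97 ± 4.76 CPM (SD, n = 5) without odour, 17.5 ± 0.801 (SD, n = 6) with NCD, 15.7 ± 2.01 (SD, n = 5) with BFD and 18.8 ± 3.52 (SD, n = 5) with HFD. These input ranges overlapped, and no odour input of Olfr1347 was above the highest no-odour input of 29.2 CPM.

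**Figure D2:**
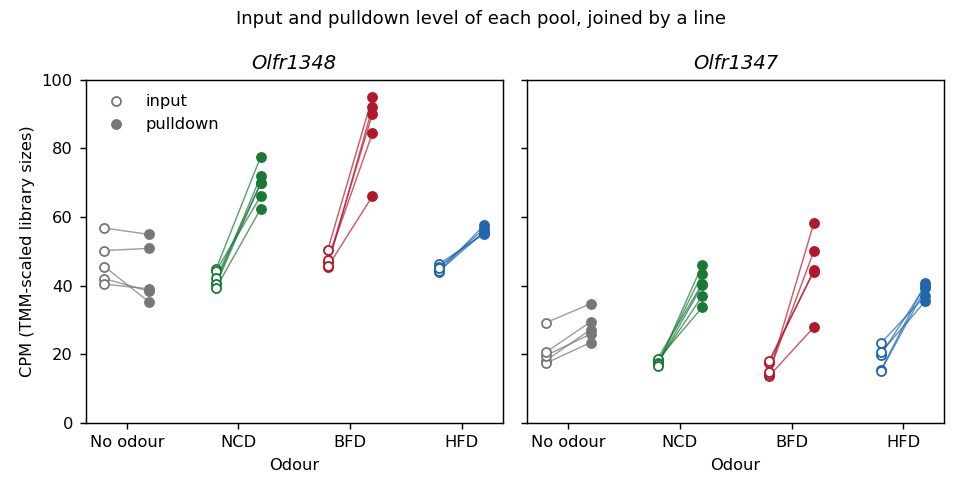
Input (open circles) and pulldown (filled circles) level of Olfr1348 and Olfr1347 in CPM, with a line joining the libraries of each pool, by odour group. The lines of Olfr1348 fall in 4 of 5 no-odour pools and rise in all 16 odour pools, and those of Olfr1347 rise in all 21 pools.

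Set against its own input, Olfr1348 was not enriched in the pulldown without odour. Its log2 pulldown-to-input ratio (log2 CPM with a prior count of 2) was -0.13, -0.37, -0.05, -0.05 and 0.02 in the no-odour pools. It ran from 0.58 to 0.81 with NCD (median 0.76, n = 6). With BFD it was 0.54, 0.94, 0.91, 0.83 and 1.01, and with HFD 0.39, 0.25, 0.28, 0.33 and 0.32. The odours fell into an order in which BFD and NCD overlapped, HFD lay below both without overlap and the no-odour pools lay below HFD without overlap. The share of all genes that fall into such an order was not counted.

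Olfr1347 was enriched in the pulldown even without odour, with log2 ratios of 0.58, 0.43, 0.40, 0.25 and 0.52. They ran from 0.87 to 1.46 with NCD (median 1.17, n = 6). The BFD pools had 1.03, 1.34, 2.02, 1.28 and 1.74, and the HFD pools 1.41, 1.38, 1.01, 0.79 and 0.68. Every odour pool was above every no-odour pool, while the 3 odours overlapped with each other. Over all genes, 0.359% of the 21168 tested were called higher under NCD, 2.47% under BFD and 0.699% under HFD (edgeR adjusted p under 0.001). At an unadjusted edgeR p under 0.05, 27.9%, 33.6% and 29.6% of all genes passed under NCD, BFD and HFD. The share of all genes whose pools separate without overlap was not counted, neither against no odour, as for both receptors, nor between odours, as for Olfr1348. Since the 2 genes were chosen on this contrast, nothing is read from the separation of their groups.

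**Figure D3:**
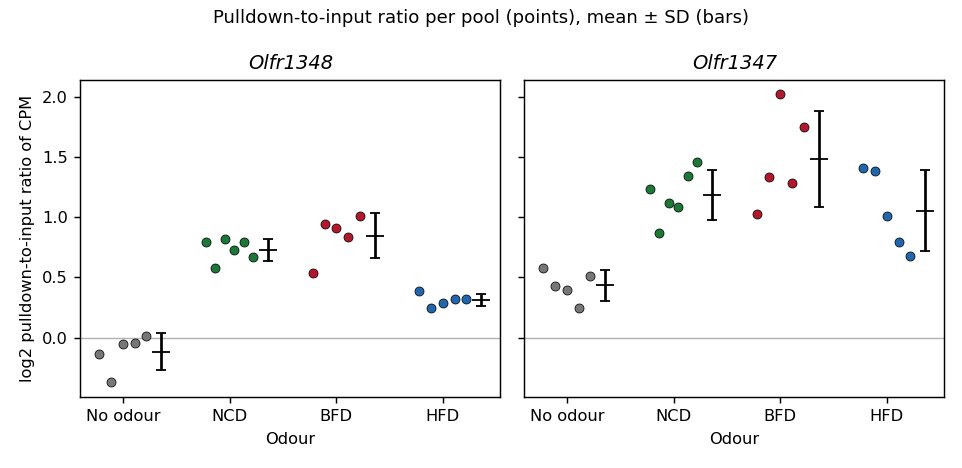
Log2 pulldown-to-input ratio of Olfr1348 and Olfr1347 in each of the 21 pools (points, left to right by replicate number), with the mean and SD of each odour group beside them. Olfr1348 has a narrow HFD group between 0.25 and 0.39 under the NCD and BFD groups, and the HFD pools of Olfr1347 spread from 0.68 to 1.41.

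From one edgeR fit over all genes and pools, the log2 fold change of the Olfr1348 ratio over no odour was 0.84 (SE 0.08) under NCD, 0.96 (SE 0.09) under BFD and 0.43 (SE 0.09) under HFD. For Olfr1347 it was 0.75 (SE 0.16), 1.05 (SE 0.16) and 0.62 (SE 0.16). Summed to 1 unit, so that reads shared between them no longer matter, the 2 genes gave 0.81 (SE 0.09), 0.96 (SE 0.10) and 0.49 (SE 0.10). Between odours, the ratio of Olfr1348 was 0.42 lower (log2 difference -0.42, SE 0.08) under HFD than under NCD and differed by -0.53 (SE 0.09) between HFD and BFD. The same differences for Olfr1347 were -0.13 (SE 0.15) and -0.43 (SE 0.16). BFD and NCD differed by 0.12 (SE 0.08) for Olfr1348 and by 0.30 (SE 0.15) for Olfr1347. For the summed counts the difference was -0.315 (SE 0.092) between HFD and NCD and -0.469 (SE 0.096) between HFD and BFD. It was 0.154 (SE 0.092) between BFD and NCD.

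BFD replicate 1 had the lowest ratio and pulldown of its group for both genes. Without it the fold changes under BFD were 1.04 (SE 0.08) for Olfr1348 and 1.16 (SE 0.16) for Olfr1347.

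The receptor family as a whole shifted with odour, and the fold changes of the 2 genes are to be read against that shift. The median log2 fold change of the 908 receptors tested was 0.23 under NCD, 0.29 under BFD and 0.27 under HFD, and edgeR called 17 (1.87%), 34 (3.74%) and 12 (1.32%) of them higher at an adjusted p under 0.001. By size of the fold change, Olfr1348 ranked 132 of 908 under NCD, 110 under BFD and 334 under HFD, and Olfr1347 ranked 159, 94 and 238. With library sizes scaled on the receptors alone, the fold changes of Olfr1348 were 0.61 (SE 0.08), 0.64 (SE 0.09) and 0.13 (SE 0.09), and those of Olfr1347 0.51, 0.73 and 0.32. The difference between HFD and NCD was then -0.47 for Olfr1348 and -0.19 for Olfr1347.

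As a share of receptor counts, which needs no library scaling, Olfr1348 was higher in the pulldowns with NCD and BFD than in those with HFD, while the HFD pools fell within the no-odour range of 1.34% to 1.78%. The share was 1.53% ± 0.200 (SD, n = 5) without odour, 1.97% ± 0.135 (SD, n = 6) with NCD, 2.28% ± 0.0549 (SD, n = 5) with BFD and 1.54% ± 0.0689 (SD, n = 5) with HFD. In the inputs this share was 1.92%, 1.67%, 1.85% and 1.73%. The share of Olfr1347 in the pulldowns was 0.984% ± 0.0877 (SD, n = 5) without odour, 1.14% ± 0.103 (SD, n = 6) with NCD, 1.18% ± 0.178 (SD, n = 5) with BFD and 1.05% ± 0.0409 (SD, n = 5) with HFD. In the inputs its mean share was 0.850% without odour and 0.698%, 0.619% and 0.719% with NCD, BFD and HFD. On average its ratio thus rose through both a higher pulldown and a lower input.

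Within a pool, Olfr1347 was the more enriched of the 2 genes in all 21 pools, and its log2 ratio was higher by 0.59 ± 0.26 on average (SD, n = 21). This gap was 0.55 ± 0.20 (SD, n = 5) without odour, 0.46 ± 0.19 (SD, n = 6) with NCD, 0.63 ± 0.30 (SD, n = 5) with BFD and 0.74 ± 0.34 (SD, n = 5) with HFD. Read as counts, there were 2.28 ± 0.275 (SD, n = 5) counts of Olfr1348 for each count of Olfr1347 in the no-odour inputs and 1.55 ± 0.118 (SD, n = 5) in the no-odour pulldowns. With HFD these ratios were 2.48 ± 0.484 and 1.46 ± 0.0796 (SD, n = 5 each).

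How the 2 genes varied from pool to pool, apart from the odour, was described by the deviations of each pool from the mean of its odour group. No p is given, since the values of each pool also entered the choice of the genes. In the pulldowns the deviations had Pearson's r = 0.741 and Spearman's rho = 0.609 over the 21 pools. Both genes deviated in the same direction in 15 of 21 pools. Without BFD replicate 1 r was 0.601, and without the 2 pools farthest from the median, BFD replicates 1 and 3, it was 0.608. A low pulldown in BFD replicate 1 was not particular to this pair. This pool had the lowest pulldown of its group for 11 of the 14 receptors with values per pool (the pair, the receptors of the cluster and the closest relatives). The 11 include both genes of the pair, and the share of all genes was not counted. For Olfr449 this pool held 27.1 CPM against 42.1 to 54.0 in the other BFD pools, and for Olfr524 14.7 against 27.6 to 33.7. In the inputs r was 0.481 and rho 0.362, and r was 0.081 without the 2 farthest pools. For the log2 ratio r was 0.39 and rho 0.242, and r was 0.192 without the 2 farthest pools. Reads shared between the genes enter all 3 measures, and their part in the correlation was not tested.

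**Figure D4:**
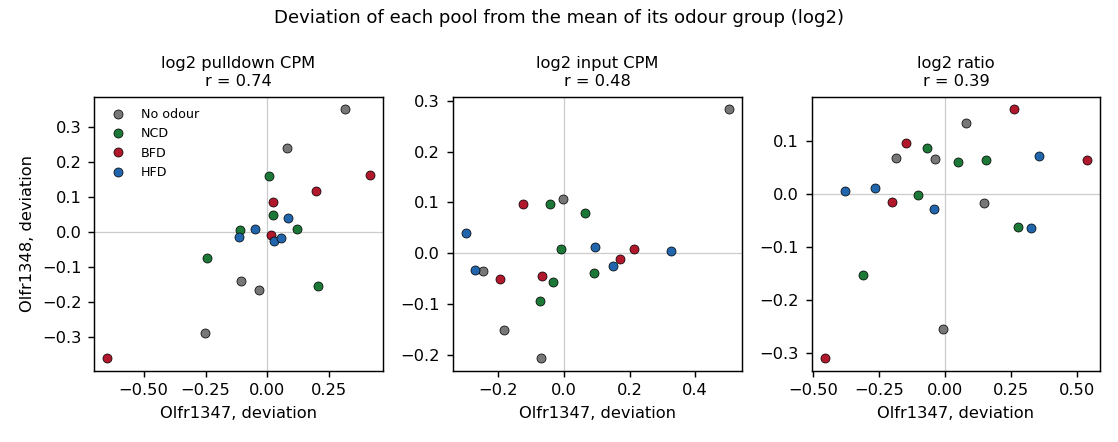
Deviation of Olfr1348 against deviation of Olfr1347 from the mean of the odour group, for log2 pulldown CPM, log2 input CPM and the log2 ratio, 1 point per pool coloured by odour. In the pulldown panel (r = 0.741) 1 BFD pool, replicate 1, lies alone at the lower left, and in the input panel 1 no-odour pool lies alone at the upper right.

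The 6 other receptors measured within 500 kb were examined next, since they were listed by position and not by their values. Of these, 0 were called higher or lower in any of the 6 contrasts by edgeR at an adjusted p under 0.001, where 0.359%, 2.47% and 0.699% of all genes were called higher under NCD, BFD and HFD. Of the 21168 genes tested, 35, 279 and 110 were called lower. Between odours 2 genes were called higher and 0 lower for BFD over NCD, 1 and 4 for HFD over NCD, and 0 and 8 for HFD over BFD. With so few calls, 0 between odours says little. At an unadjusted p under 0.05, 2 of the 6 nearby receptors passed under NCD, 2 under BFD and 1 under HFD, where 27.9%, 33.6% and 29.6% of all genes did. DESeq2 called 1, 0 and 1 higher. Their median log2 fold change was 0.15 under NCD, 0.25 under BFD and 0.02 under HFD, below the medians of all receptors.

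Olfr1349, whose start site is 14.2 kb upstream of that of Olfr1348 on the same strand, came closest. It shares 0 words with either gene, and 1.56% with any gene. Its log2 ratio was 0.95, 0.83, 0.93, 1.15 and 0.87 in the no-odour pools and ran from 1.44 to 1.88 with NCD (median 1.71, n = 6). The BFD pools had 0.92, 1.35, 1.84, 1.27 and 1.65, and the HFD pools 1.73, 1.59, 1.57, 1.48 and 1.49. The NCD and HFD groups did not overlap with no odour, and BFD did so through replicate 1 only. How many of all genes separate in this way was not counted. Its ratio differed from no odour by 0.71 on the log2 scale (SE 0.13, edgeR adjusted p = 0.00134) under NCD, 0.46 (SE 0.14, edgeR adjusted p = 0.0154) under BFD and 0.63 (SE 0.14, edgeR adjusted p = 0.00324) under HFD, short of the threshold. DESeq2 called it under NCD (adjusted p = 8.1e-05) and HFD (adjusted p = 0.000681), and edgeR did so without BFD replicate 1 (adjusted p = 0.000213 and 0.000735) and, under NCD, in fits on the compared groups only (adjusted p = 0.000771), without the filter (adjusted p = 0.000578) or without BFD replicate 3 (adjusted p = 0.000698).

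On the other side, Olfr5 starts 2 bases beyond the downstream end of Olfr1347 and shares 91 words with it and 105 with Olfr1348. Its log2 fold changes were 0.29, 0.13 and -0.03 under NCD, BFD and HFD (SE 0.18 to 0.19, lowest edgeR adjusted p = 0.312). Olfr1336 (start site at -52.58 kb from that of Olfr1348) had 0.24, 0.37 and 0.07 (lowest edgeR adjusted p = 0.163), and Olfr1346 (-41.65 kb) had -0.40, -0.35 and -0.38 (lowest edgeR adjusted p = 0.145). Olfr1344 (-70.06 kb) had 0.76 under BFD (SE 0.23, edgeR adjusted p = 0.0169), 0.05 under NCD and 0.30 under HFD, but 72.8% of its words lie in an overlapping gene, Gm20715, so that its value is uncertain. Olfr1350 (56.1 kb on the other side) had -0.18, -0.07 and -0.09 (lowest edgeR adjusted p = 0.698). The pseudogene Olfr1345-ps1 of the same stretch was not analysed here.

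**Figure D5:**
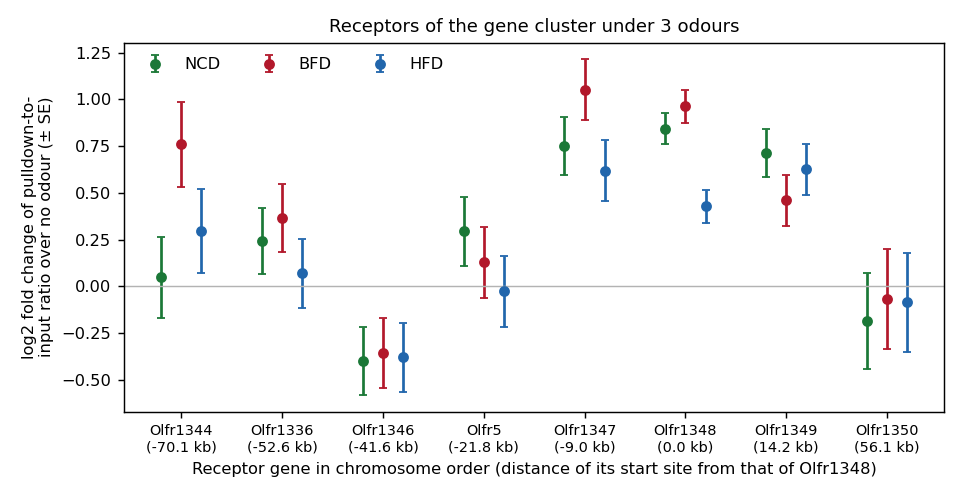
Log2 fold change over no odour of the pulldown-to-input ratio (± SE, edgeR) for the 8 receptors of the cluster in chromosome order, with the distance of each start site from that of Olfr1348 in kb. Olfr1347, Olfr1348 and Olfr1349 lie above 0 under all 3 odours, between 0.43 and 1.05, and the fold changes of Olfr1346 lie between -0.40 and -0.35.

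Likeness of the protein sequence was then examined in the same way, on a list that shares Olfr1336, Olfr5 and Olfr1346 with the nearby receptors. Of the 9 receptors closest to Olfr1348 after Olfr1347, 0 were called by edgeR at an adjusted p under 0.001 in any odour against no odour, with 4, 2 and 2 at an unadjusted p under 0.05 under NCD, BFD and HFD, beside 27.9%, 33.6% and 29.6% of all genes. DESeq2 called 1 of them, Olfr2, under NCD (adjusted p = 0.000502) and 0 under BFD and HFD. Olfr2, at 53.5% identity and on the same chromosome outside the cluster, had log2 fold changes of 0.66 (SE 0.14, edgeR adjusted p = 0.00378), 0.44 (SE 0.14, edgeR adjusted p = 0.0278) and 0.45 (SE 0.14, edgeR adjusted p = 0.0341). Olfr1414 (50.6%, chromosome 1) had 0.86 (edgeR adjusted p = 0.0172), 0.83 (edgeR adjusted p = 0.0142) and 0.66 (edgeR adjusted p = 0.0645). Olfr449 had 0.28, 0.25 and 0.20 (lowest edgeR adjusted p = 0.141), Olfr524, Olfr522 and Olfr1415 lay between -0.39 and 0.09, and the median of the 9 was 0.24, 0.13 and -0.0048 under NCD, BFD and HFD.

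The receptors whose log2 ratio followed Olfr1348 most closely over the 21 pools lie on other chromosomes. They were Olfr466 (r = 0.913), Olfr357 (0.889), Olfr1260 (0.88), Olfr1275 (0.879) and Olfr1384 (0.877), and Olfr1347 had rank 12 among receptors, with r = 0.823. For Olfr466 and Olfr1384 the log2 fold changes were 1.26 and 1.19 under NCD, 1.36 and 1.20 under BFD and 0.44 and 0.18 under HFD. For Olfr1347 the most alike receptors were Olfr136 (r = 0.824), Olfr287 (0.824), Olfr1348 (0.823), Olfr121 (0.813) and Olfr191 (0.812). These correlations run over groups that differ in odour, share libraries and depth, and are given as a description.

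Of genes of any kind, the most alike to Olfr1348 were Lcn3 (r = 0.964), Lcn4 (0.949) and Dmbt1 (0.948), which code for lipocalins of nasal secretions and for a secreted mucosal glycoprotein, then Fam120aos (0.916) and Olfr466. Lcn3 had log2 fold changes of 1.87 under NCD, 1.82 under BFD and 0.75 under HFD, and Lcn4 had 2.11, 1.94 and 0.81. The genes most alike to Olfr1347 were Dusp14 (0.941), P2rx4 (0.933), Pdlim1 (0.93), Rpl32 (0.928) and Fam178b (0.926), with fold changes between 0.27 and 0.93.

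Markers of glands, summed, were also higher in the pulldowns with odour, but with HFD above NCD, unlike Olfr1348. The summed level of 4 gland markers (Sox9, Bpifb9b, Muc5b and Lcn11) was 6150 to 8320 CPM in the no-odour pulldowns, 12300 to 13800 with NCD, 14500 to 22200 with BFD and 15900 to 18600 with HFD, and 2 of the 4 were called higher under each odour. Of all genes tested, 0.359%, 2.47% and 0.699% were called higher under NCD, BFD and HFD, to be set beside the marker calls given here. Set against the inputs, the median log2 fold change of the 4 markers was 0.87 under NCD, 0.73 under BFD and 0.88 under HFD. In the inputs they ran from 6800 to 14700 CPM, none of the 4 was at 0 in any library, and their part in the result was not tested. The 6 markers of olfactory sensory neurons (Omp, Gnal, Adcy3, Cnga2, Stoml3 and Gng13) summed to 15500 to 19000 CPM in the no-odour pulldowns and 17300 to 24000 in the odour pulldowns. In the inputs they summed to 14200 to 18200 CPM, so the labelled tissue carried its defining neurons. Their median log2 fold change against the inputs was 0.25 under NCD, 0.35 under BFD and 0.22 under HFD. Of these 6 markers, 0, 2 and 0 were called higher. The 3 microvillous cell markers, summed, were at 33.8 to 40.9 CPM in the no-odour pulldowns and 33.0 to 67.8 with odour, with 1 of 3 called higher under each odour. For markers of supporting, basal, immature, ciliated and red cells, neutrophils, macrophages and B cells, the median log2 fold changes of the lists lay between -0.48 and 0.22.

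Ribosomal RNA took 11.7% to 23.3% of the counts in the no-odour pulldowns and 8.20% to 17.6% in those with odour, and 19.3% to 28.2% against 9.39% to 18.9% in the inputs. The input ranges did not overlap, so in the inputs this share cannot be fully told apart from the presence of an odour. With the share as a covariate the fold changes of Olfr1348 were 0.86, 1.08 and 0.43, against 0.84, 0.96 and 0.43 without it. Those of Olfr1347 were 0.76, 1.15 and 0.62, against 0.75, 1.05 and 0.62. The values under BFD moved most. Depth ran from 25392812 to 36738330 counts in the pulldowns and from 24839555 to 36781553 in the inputs. The no-odour group had the lowest mean depth of the pulldowns, at 27630000 counts, and the highest of the inputs, at 32940000. The 2 genes had 416.7 to 2801 counts in a library.

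Genes of the odour response were described from lists chosen by function, for comparison. Of 15 transduction genes, 0 were called under NCD and HFD by edgeR (6 and 7 at an unadjusted p under 0.05, as were 27.9% and 29.6% of all genes). Under BFD, 8 had an unadjusted edgeR p under 0.05, as did 33.6% of all genes. There 2 of the 15 were called higher, beside 2.47% of all genes. These were Omp, a marker protein of mature olfactory neurons (log2 fold change 0.64, SE 0.10, edgeR adjusted p = 0.000189), and Gng13, a G protein gamma subunit (1.33, SE 0.24, edgeR adjusted p = 0.000614). Under NCD the values were 0.42 (edgeR adjusted p = 0.00789) and 0.94 (edgeR adjusted p = 0.0107), and under HFD Omp had 0.42 (edgeR adjusted p = 0.00772) and Gnal, the olfactory G protein alpha subunit, had -0.32 (edgeR adjusted p = 0.0183). The median of the list was 0.04, 0.10 and 0.06 under NCD, BFD and HFD.

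Of 14 early activity genes, 0 were called under NCD by edgeR (7 at an unadjusted p under 0.05, beside 27.9% of all genes). Under BFD and HFD, 5 and 5 had an unadjusted edgeR p under 0.05, beside 33.6% and 29.6% of all genes. Of the 21168 genes tested, 522 were called higher and 279 lower under BFD, and 148 higher and 110 lower under HFD. Btg2, an antiproliferative early response gene, rose under BFD (0.63, SE 0.11, edgeR adjusted p = 0.000265) and had 0.38 under NCD (edgeR adjusted p = 0.0165) and 0.43 under HFD (edgeR adjusted p = 0.009). Arc, a synaptic early gene, fell in the pulldown relative to the input, by 0.97 under BFD (SE 0.20, edgeR adjusted p = 0.000999) and by 1.12 under HFD (SE 0.20, edgeR adjusted p = 0.000604), and had -0.79 under NCD (edgeR adjusted p = 0.00834).

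Between odours, 0 genes of either list were called by edgeR, where few of all 21168 genes were called (at most 8, all lower, for HFD over BFD). Of the transduction genes, 3 had an unadjusted p under 0.05 between BFD and NCD, 0 between HFD and NCD and 4 between HFD and BFD, and of the early activity genes 2, 0 and 1. Of all genes, 7.24%, 4.62% and 8.0% did. The smallest p-values belonged to Cnga4 (log2 difference 0.17) and Omp (0.21) for BFD over NCD, Rtp1 (-0.17) and Pde4a (-0.18) for HFD over NCD, and Gnb1 (-0.23) and Rtp1 (-0.20) for HFD over BFD. Among early activity genes they belonged to Egr2 (0.56) and Btg2 (0.25), Egr2 (0.42) and Arc (-0.34), and Ier2 (-0.30) and Dusp1 (-0.15) in the same contrasts, with edgeR adjusted p-values of 0.511 or more in both lists.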

How the data were processed

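The deposited table holds expected counts per gene, which the authors estimated with Salmon in an nf-core pipeline on GRCm38 after amplification of small amounts of RNA, paired-end. These values precede the steps in which the authors normalized each pulldown to its input and ran DESeq2 (version 1.26). Because Salmon shares reads among similar genes, 30.9% of the values are not whole, and they were rounded. All 42 libraries of 21 pools were used, with groups and replicate numbers from the sample titles. All 90 pairs of libraries within a group differed by more than counting noise (chi-square divided by its degrees of freedom of 3.26 or more). Nothing says whether pools were exposed on separate days, so p-values measure the spread between these pools.

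Genes passing filterByExpr (minimum count 10; 21168 genes, 908 receptors) entered 1 robust quasi-likelihood fit in edgeR 4.0.16 (limma 3.58.1, R 4.3.3) with TMM scaling, a term per pool and a pulldown term per odour. The 556 genes without a name (0.525% of counts) stayed in. P-values are two-sided, Benjamini-Hochberg adjusted over all genes tested, with the study's threshold of 0.001. SE is the log2 fold change divided by the root of F. The fit was also run on simulated counts with known changes. The simulated counts had the same spread for every gene, and no pool differences or shared reads. That run therefore does not cover these features of the data. The pool term rests on the methods, by which pulldown and input come from the same tissue (median correlation of their deviations 0.0142 over 21 pools).

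CPM use TMM-scaled library sizes. Protein identity, from global alignment, and 31-base words were computed from GENCODE M21 sequences with Biopython 1.88, because a RefSeq protein table was not used here, contrary to the plan. Ribosomal RNA means 156 genes annotated as such or resembling it. Named genes were the 2 receptors, those within 500 kb, the 10 closest in protein sequence, the 5 genes and 5 receptors of highest correlation with each, and the 2 transduction and early activity genes with the smallest p in each contrast. These choices, the members and the lists were made with earlier results of these data known. The permutation test planned for the correlation of deviations is not reported, since the values of each pool entered the choice of the genes. Alternatives were other scalings, DESeq2 1.42.0, other filters, thresholds, prior counts and windows, pulldown libraries only, fits on the compared groups, the replicate number or ribosomal RNA as terms, summed counts and leaving out each pool.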

Additional observations from a re-analysis of the deposited data

Results flagged for a closer look

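The input of Olfr1347 in no-odour replicate 4 was 29.2 CPM, far from the other 4 no-odour inputs, which ran from 17.4 to 20.6 CPM (median 18.9). The same pool had the highest pulldown of its group for both receptors, 34.7 CPM for Olfr1347 and 54.9 for Olfr1348. Its log2 ratio for Olfr1347 was the lowest of the group at 0.25. It was the only value to stand apart in this way among 48 sets of pools looked at, where chance alone picks about 1 in 20.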

How the results depend on the processing

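All 12 fold changes of the 2 receptors kept their direction under all 31 alternatives, 21 of which leave out a pool. These alternatives reuse the data on which the genes were chosen, so they describe the processing and give no separate evidence. The Olfr1347 difference between HFD and NCD ran from -0.315 to -0.039. Scaling on the receptors alone gave 0.605, 0.643 and 0.133 for Olfr1348 under NCD, BFD and HFD and 0.513, 0.73 and 0.323 for Olfr1347, with 11, 18 and 7 receptors called. Pulldown libraries only, with no correction for the input, gave 0.66 for Olfr1348 and 0.499 for Olfr1347 under NCD and 0.675 for Olfr1347 under BFD. There the difference of Olfr1348 was 0.31 between BFD and NCD and -0.305 between HFD and NCD, and 1 nearby receptor (Olfr1336, BFD), 1, 2 and 1 relatives and 43, 62 and 62 receptors were called. Summed counts gave -0.315 between HFD and NCD. On totals without ribosomal RNA genes the mean ratio of Olfr1348 was 0.612 with NCD and 0.21 with HFD.

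The replicate block (replicate number by library type) gave 0.83, 0.95 and 0.42 for Olfr1348 and 10 and 6 receptors under NCD and HFD. Same-numbered pools of different odours had a median correlation of deviations of 0.0205 (-0.214 to 0.112). The pulldown and input of a pool, which come from the same tissue, had a median of only 0.0142. Such correlations therefore cannot tell whether the numbers pair the pools. With no replicate block for the pool, 1 relative was called under NCD. The ribosomal RNA covariate left 15 receptors under BFD, and compared groups only left 4 under BFD and 4 under HFD, with 1 nearby receptor under NCD. DESeq2 called 30 receptors under NCD and 25 under HFD, 1 nearby receptor under each and 1 relative under NCD. No filter gave 1 nearby receptor under NCD. At an adjusted p of 0.05 edgeR called 1, 2 and 1 nearby receptors, 2, 2 and 1 relatives, and 93, 119 and 95 receptors.

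Leaving out each pool moved Olfr1348 between 0.777 and 0.878 under NCD, 0.922 and 1.04 under BFD and 0.376 and 0.462 under HFD. The counts of receptors ran from 10 to 24, 21 to 46 and 7 to 20, and those of nearby receptors from 0 to 1 under NCD and HFD. The lowest counts came without no-odour replicates 2 or 3 (NCD, 10 each), BFD replicate 2 (BFD, 21; 22 without replicate 3) and HFD replicates 1, 2 or 5 (HFD, 7 each), and 20 under HFD without BFD replicate 1. The pulldown correlation ran from 0.601 to 0.836. The causes were not tested.

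Shared reads, the scaling and the 5 or 6 pools per group limit these values.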
